A study of Mus musculus with 11 samples.

Results

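Elastic fibre and matrix crosslinking genes were followed across 11 arrays of mouse aortic adventitia. The 10 genes were Eln, Fbn1, Fbln1, Fbln2, Fbln5, Mfap2, Mfap5, Lox, Loxl1 and Loxl2, and a probe set was taken for one of them where the platform annotation gave it that single gene symbol. The rule found 13 probe sets for 8 of the 10 genes among 22626 probe sets on the array. Fbn1 and Loxl2 had no such probe set and were not analysed here. Of the 13 probe sets, 11 passed the filter on dim signals, which kept 14988 probe sets in all. The other 2 were a dim probe set of Eln (1420854_at) and a dim probe set of Lox (1437903_at).

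The study set adventitia that holds an artery tertiary lymphoid organ (ATLO), a lymphoid aggregate beside advanced plaque, against adventitia without one. The ATLO group (n = 4) was abdominal aorta adventitia within the lesion area of male Apoe-deficient mice of the strain B6.129P2-Apoe<tm1Unc>/J, and the outside-lesion group (n = 4) was adventitia away from lesions in mice of that strain. The wild-type group (n = 3) was adventitia of the same vessel in male C57BL mice, whose sample names also carry the letters PNS, which the labels do not explain. All mice were 78 weeks old and were kept on normal chow, and all tissue was cut out by laser microdissection. The series' design text calls the second group mice without lesions, while its tissue label places it outside the lesion area. In the Apoe-deficient groups, 200 sections of 10 µm were pooled for a sample from aortas removed together with para-aortal lymph nodes, fat and connective tissue. Their RNA was extracted with phenol and chloroform and its in vitro transcription lasted 68 h, whereas wild-type RNA came from a lipid tissue kit and was transcribed for 24 h, so genotype and preparation cannot be told apart in a comparison with wild type. The labels do not say whether each array is a different mouse. The p-values set differences between groups against the spread between these samples, which may not be the spread between mice.

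Elastic fibres consist of a core of crosslinked elastin on a scaffold of microfibrils. Fibrillins form the microfibrils, the microfibril-associated glycoproteins bind to them, and fibulins link tropoelastin to the scaffold and to the crosslinking enzymes. Lysyl oxidases are copper-dependent amine oxidases that oxidise lysines of elastin and collagen, after which the chains crosslink. In the aorta most elastin lies in the lamellae of the media, and the adventitia is rich in fibrillar collagen with some elastic fibres made by fibroblasts.

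Sequence upstream of 5 of the 10 genes, Fbn1, Mfap2, Fbln1, Fbln2 and Fbln5, was found in the RefSeq promoter table (GRCm38.p6), as 8 windows of 300 bases that run from 250 bases before to 50 bases after a transcription start. The search left out the windows of a single chromosome, and a gene not named here may have a window on it. The windows of the 3 fibulins are shown because these genes belong to one family and gave different values below. Fbln1 and Fbln5 each had 2 windows, of which the one with the higher share of G and C is printed. Capitals mark GC boxes, GGGCGG on either strand.
Fbln1, chr15:85205758-85206057, plus strand: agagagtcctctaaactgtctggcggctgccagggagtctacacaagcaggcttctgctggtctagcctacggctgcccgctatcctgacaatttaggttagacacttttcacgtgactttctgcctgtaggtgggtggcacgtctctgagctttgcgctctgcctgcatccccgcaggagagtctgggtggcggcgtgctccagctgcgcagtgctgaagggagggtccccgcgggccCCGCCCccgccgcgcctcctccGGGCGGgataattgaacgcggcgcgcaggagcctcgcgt
Fbln2, chr6:91212514-91212813, plus strand: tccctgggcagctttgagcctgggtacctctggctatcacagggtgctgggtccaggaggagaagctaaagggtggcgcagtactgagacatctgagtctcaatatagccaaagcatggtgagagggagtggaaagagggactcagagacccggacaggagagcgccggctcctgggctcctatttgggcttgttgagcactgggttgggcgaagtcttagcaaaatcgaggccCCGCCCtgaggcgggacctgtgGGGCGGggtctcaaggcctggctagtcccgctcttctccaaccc
Fbln5, chr12:101819070-101819369, minus strand: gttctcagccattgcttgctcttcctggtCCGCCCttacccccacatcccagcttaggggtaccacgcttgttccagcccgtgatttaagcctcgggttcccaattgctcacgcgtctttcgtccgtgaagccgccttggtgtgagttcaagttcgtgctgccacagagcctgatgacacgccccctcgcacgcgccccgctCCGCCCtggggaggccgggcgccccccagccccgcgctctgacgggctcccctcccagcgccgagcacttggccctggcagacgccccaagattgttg
Each of the 3 printed windows held 2 GC boxes, while the second windows of Fbln1 and Fbln5 held 0, and 35.66% of the 32851 windows in the table hold the motif at least once. The shares of G and C were 64% and 51.67% for the Fbln1 windows, 60.33% for Fbln2 and 65.67% and 48.67% for the Fbln5 windows, with the printed one first, and the median over all windows was 52.67%. Neither TATAAA, held by 13.62% of all windows, nor TGANTCA, the letters of an AP-1 site and held by 7.808%, was present in any of the 8 windows on either strand. The counts for Fbln1 and Fbln5 depend on which window is taken, and the matches describe letters only.

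Signals were linear intensities in arbitrary units that the authors had scaled to a common level on every array, and values are given for arrays 1 to 4 of ATLO, 1 to 4 of outside-lesion and 1 to 3 of wild-type adventitia in that order. A probe set was called where limma's adjusted p over all 14988 probe sets was under 0.05. Log2 changes are given with their standard error. Apoe itself had signals between 86.9 and 150.2 on ATLO arrays and between 45.9 and 179.7 on outside-lesion arrays, against 11969.4 to 13164.3 on wild-type arrays, as the genotype labels state. ATLO against outside-lesion adventitia gave 4777 calls, ATLO against wild type 4012 and outside-lesion against wild type 489. Because tissue pieces of mixed cells were measured, fewer cells of a type and less RNA per cell cannot be told apart in any of these values.

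On 1 probe set each, Lox and Fbln1 gave more signal in ATLO than in outside-lesion adventitia. Lox rose 2.27-fold and Fbln1 1.85-fold on the probe sets that passed the test, with no overlap between the groups. These were the 2 of 11 probe sets called higher, and 0 of 11 were called lower, where 17.9% of all tested probe sets were called higher and 13.9% lower. Another tested probe set of each gene overlapped and was not called (limma, adjusted p = 0.0759 for Lox and 0.0889 for Fbln1). The Fbln1 call was lost under alternatives given below. At an unadjusted limma p under 0.05 there were 6 of 11 member probe sets, against 6254 of all 14988 tested. All 11 probe sets had a positive log2 change, between 0.05 for Fbln5 and 1.18 for Lox, and 57.4% of all tested probe sets had a positive one. The median log2 change was 0.53 over the 11 probe sets and 0.10 over all tested. Setting the arrays to equal medians moved the median of all probe sets by -0.12 and the share of calls that were higher to 44.1%, from 56.3% with the deposited scaling. The members' median lay 0.43 above the median of all probe sets, a distance that equal medians leave nearly fixed by construction, and 0.39 above it after quantile normalization. Only Lox and Fbln1 had no overlap of ATLO and outside-lesion arrays with ATLO higher, which held for 2 of 11 probe sets and for 17.2% of all tested.

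**Figure D1:**
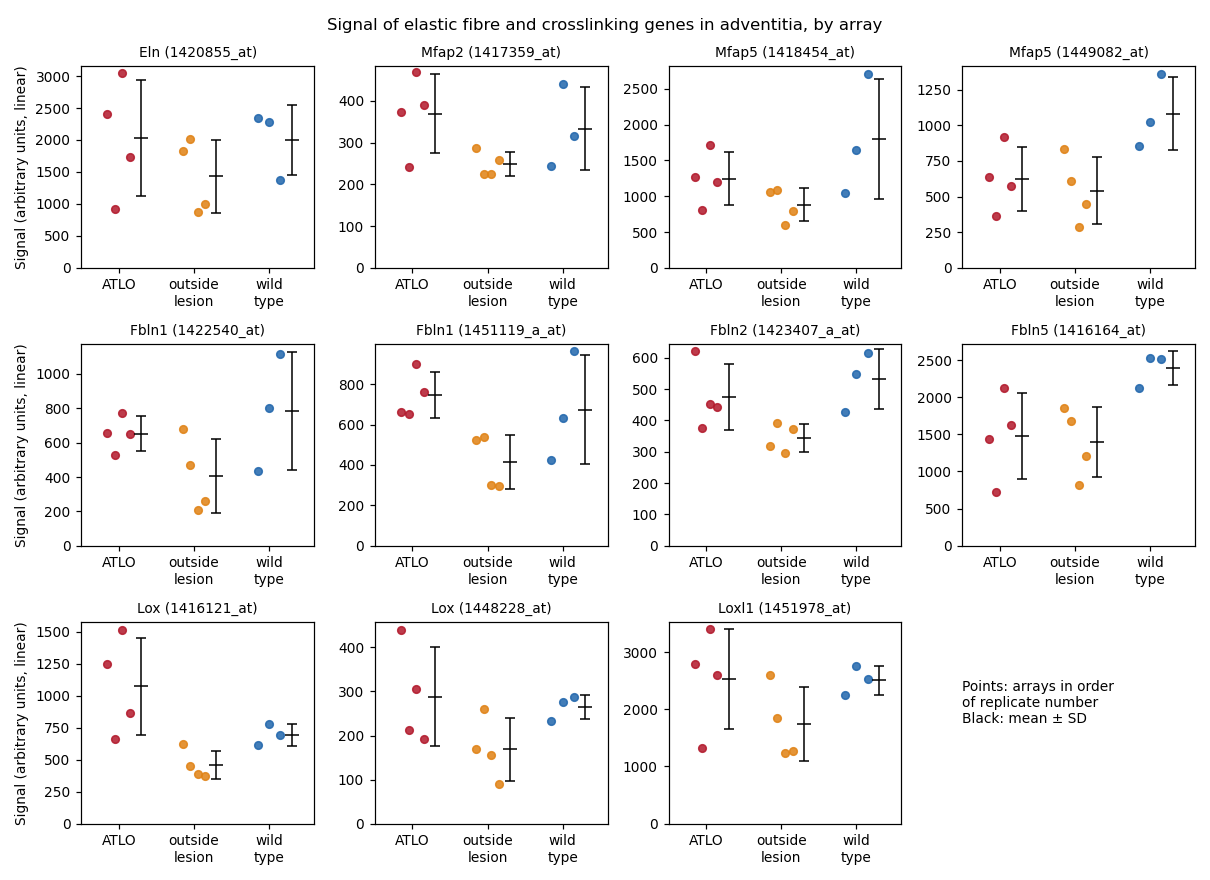
Signal in arbitrary linear units (vertical axes, each starting at 0) of the 11 tested probe sets on each array, with ATLO, outside-lesion and wild-type adventitia from left to right; points are arrays and black marks are the mean and SD. In the Lox panel 1416121_at all 4 ATLO arrays lie at or above 664.1 and all 4 outside-lesion arrays at or below 619.1, while the Eln and Loxl1 panels overlap in all groups.

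Eln encodes tropoelastin, the monomer of the elastin core. Its bright probe set (1420855_at) had signals of 2399.5, 922.6, 3042.9 and 1733.5 in ATLO, 1826.5, 2019.6, 873 and 1006 in outside-lesion and 2346.9, 2282.6 and 1367.4 in wild-type adventitia. The groups overlapped throughout, and the spread within a group was as wide as any difference between groups. The means were 2025 ± 909 in ATLO, 1431 ± 576 in outside-lesion and 1999 ± 548 in wild-type adventitia (SD, n = 4, 4 and 3). By limma, the log2 change was 0.46 ± 0.36 for ATLO against outside-lesion (95% interval -0.31 to 1.24, adjusted p = 0.359), -0.07 ± 0.39 for ATLO against wild type (-0.91 to 0.77, adjusted p = 0.913) and -0.53 ± 0.39 for outside-lesion against wild type (-1.37 to 0.30, adjusted p = 0.426). The intervals of both comparisons with outside-lesion arrays reached past 1 log2 unit, so a change of that size cannot be told from none with these arrays.

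The dim Eln probe set (1420854_at) had 144.7, 17.7, 97.9 and 78 in ATLO, 27.5, 20.3, 34.7 and 16.5 in outside-lesion and 69.9, 46.9 and 13.6 in wild-type adventitia. All 4 outside-lesion arrays lay under the floor of 35.1 at which low signals were set, and so did ATLO array 2 and wild-type array 3. In a fit without the filter its log2 change for ATLO against outside-lesion was 1.17 ± 0.39 (limma, adjusted p = 0.0695), which did not pass the test. On both Eln probe sets ATLO array 2 was the lowest ATLO array.

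Mfap2 and Mfap5 encode microfibril-associated glycoproteins that bind fibrillin. Mfap2 (1417359_at) had 373.6, 241.3, 469.8 and 390.9 in ATLO, 286.4, 225.3, 224.3 and 258.6 in outside-lesion and 243.3, 440.2 and 315.7 in wild-type adventitia. ATLO arrays 1, 3 and 4 were thus above every outside-lesion array, and ATLO array 2 lay among them. The log2 change for ATLO against outside-lesion was 0.54 ± 0.23 (limma, adjusted p = 0.0964). Without ATLO array 2 it was 0.73 (adjusted p = 0.0248) and passed the test. Against wild type, the log2 change of ATLO was 0.15 ± 0.25 (adjusted p = 0.692) and that of outside-lesion adventitia -0.39 ± 0.25 (adjusted p = 0.372).

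Mfap5 was read by 2 probe sets whose wild-type means were the highest of the 3 groups. The first (1418454_at) had 1264.5, 804.7, 1719.1 and 1200.1 in ATLO, 1053.5, 1087.1, 598.7 and 786.7 in outside-lesion and 1051.5, 1640.8 and 2708.6 in wild-type adventitia. The second (1449082_at) had 635.7, 365.9, 916.1 and 572.7 in ATLO, 830.4, 607.4, 282.8 and 448 in outside-lesion and 857.7, 1020.4 and 1359.1 in wild-type adventitia. On the second, all outside-lesion arrays lay under all wild-type arrays, and the lowest wild-type array lay under the highest ATLO array. Outside-lesion against wild type gave log2 changes of -0.96 ± 0.32 (limma, adjusted p = 0.111) and -1.08 ± 0.35 (adjusted p = 0.104). ATLO against wild type gave -0.47 ± 0.32 (adjusted p = 0.29) and -0.84 ± 0.35 (adjusted p = 0.0896), and the second value became -1.05 (adjusted p = 0.0465) without ATLO array 3. ATLO against outside-lesion gave 0.49 ± 0.30 (adjusted p = 0.232) and 0.23 ± 0.32 (adjusted p = 0.622), and the second value was -0.043 without outside-lesion array 3.

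The fibulins are calcium-binding glycoproteins of elastic fibres and basement membranes. Fbln1 was read by 2 probe sets. One of them (1451119_a_at) had 661.3, 654.4, 897.7 and 762.4 in ATLO, 522.6, 539, 300.7 and 297 in outside-lesion and 426.5, 631.3 and 963.1 in wild-type adventitia. Every ATLO array was above every outside-lesion array, and the wild-type arrays spanned both. Fbln1 rose in ATLO against outside-lesion adventitia by a log2 change of 0.89 ± 0.27 (95% interval 0.32 to 1.46, limma, adjusted p = 0.0207). The call was lost without ATLO array 3 (0.79, adjusted p = 0.0586), outside-lesion array 3 (0.75, adjusted p = 0.063) or outside-lesion array 4 (0.75, adjusted p = 0.0638). It was also lost with equal array medians (0.77, adjusted p = 0.0599), with no filter (adjusted p = 0.0658) and with the actin ratio described below as a covariate (0.99, adjusted p = 0.0753).

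The other Fbln1 probe set (1422540_at) had 654.9, 526.4, 775.7 and 653.1 in ATLO, 678.9, 471.1, 205.6 and 262.7 in outside-lesion and 435.1, 800.6 and 1117.6 in wild-type adventitia. Here outside-lesion array 1 reached into the ATLO range. The log2 change for ATLO against outside-lesion was 0.83 ± 0.35 (limma, adjusted p = 0.0889), close in size to that of the first probe set, and without outside-lesion array 1 it was 1.14 (adjusted p = 0.021). Against wild type, the 2 Fbln1 probe sets differed in sign for ATLO (-0.18 ± 0.38 and 0.21 ± 0.29, adjusted p = 0.764 and 0.618) and had -1.01 ± 0.38 and -0.68 ± 0.29 for outside-lesion adventitia (adjusted p = 0.148 and 0.184), with the order 1422540_at and then 1451119_a_at. On both probe sets outside-lesion arrays 3 and 4 were the lowest of all 11 arrays.

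Fbln2 (1423407_a_at) had 622.6, 375.6, 453.8 and 441.8 in ATLO, 316.9, 391.8, 294.9 and 372 in outside-lesion and 427.5, 548.7 and 616.4 in wild-type adventitia. All outside-lesion arrays were below all wild-type arrays, and ATLO overlapped both groups. The log2 change was 0.45 ± 0.19 for ATLO against outside-lesion (limma, adjusted p = 0.0881), -0.17 ± 0.20 for ATLO against wild type (adjusted p = 0.556) and -0.62 ± 0.20 for outside-lesion against wild type (adjusted p = 0.108). None of the 3 passed the test.

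Fbln5 binds tropoelastin and the lysyl oxidase Loxl1, and mice that lack it form disorganised elastic fibres. It (1416164_at) had 1431, 721.4, 2125.2 and 1622.9 in ATLO, 1860.2, 1680.8, 822.8 and 1202.3 in outside-lesion and 2129.4, 2532.1 and 2509.8 in wild-type adventitia. All 8 arrays of Apoe-deficient mice lay below the 3 wild-type arrays, the highest ATLO array by a margin of a few units. ATLO averaged 1475 ± 581 and outside-lesion adventitia 1391 ± 470 (SD, n = 4 each), with a log2 change of 0.05 ± 0.31 (95% interval -0.61 to 0.71, limma, adjusted p = 0.917) that turned to -0.067 with equal array medians. Against wild type, at 2390 ± 226 (SD, n = 3), the log2 change was -0.79 ± 0.33 for ATLO (adjusted p = 0.092) and -0.85 ± 0.33 for outside-lesion adventitia (adjusted p = 0.16). Neither passed the test. ATLO without array 3 gave -1.005 (adjusted p = 0.0438), and outside-lesion adventitia with array weights gave -0.98 (adjusted p = 0.0372).

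Lox encodes lysyl oxidase, which acts on both elastin and collagen. The brightest of its probe sets (1416121_at) had 1248, 664.1, 1516.4 and 862.9 in ATLO, 619.1, 452.4, 388.5 and 375.5 in outside-lesion and 612, 782.5 and 690.4 in wild-type adventitia. All ATLO arrays lay above all outside-lesion arrays, and the wild-type arrays lay between and overlapped both. The means were 1073 ± 382, 459 ± 112 and 695 ± 85.3 in ATLO, outside-lesion and wild-type adventitia (SD, n = 4, 4 and 3). Lox rose in ATLO against outside-lesion adventitia by a log2 change of 1.18 ± 0.24 (95% interval 0.66 to 1.71, limma, adjusted p = 0.00236). This call held under every alternative tried, with log2 changes from 0.99 without ATLO array 3 to 1.66 with the actin ratio as a covariate, and the average of its 3 probe sets gave 0.70 (adjusted p = 0.035).

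In the order ATLO, wild type, outside-lesion, neighbouring levels of Lox did not pass the test. The log2 change was 0.56 ± 0.26 for ATLO against wild type (limma, adjusted p = 0.13) and -0.62 ± 0.26 for outside-lesion against wild type (adjusted p = 0.186). Without ATLO array 2 the ATLO value was 0.77 and was called (adjusted p = 0.037), and with the actin ratio as a covariate it was 0.70 (adjusted p = 0.0284).

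The second Lox probe set (1448228_at) had 439.7, 213.7, 306.1 and 192.7 in ATLO, 169, 261, 155.9 and 89 in outside-lesion and 233.5, 275.3 and 286.6 in wild-type adventitia. Outside-lesion array 2 lay above 2 ATLO arrays, and the log2 change was 0.79 ± 0.32 (limma, adjusted p = 0.0759). Without that array it was 1.04 (adjusted p = 0.0228). The third Lox probe set (1437903_at) was dim, with 25.5 to 53.4 in ATLO, 23.4 to 51.5 in outside-lesion and 33.1 to 65.7 in wild-type adventitia. In a fit without the filter its log2 change was 0.12 ± 0.22 (adjusted p = 0.803) for ATLO against outside-lesion, so the 3 Lox probe sets shared a sign and differed in size.

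Loxl1 is the lysyl oxidase that mice need to renew elastic fibres as adults. It (1451978_at) had 2785.5, 1322.9, 3406.9 and 2605.3 in ATLO, 2607.4, 1842, 1228.8 and 1274.7 in outside-lesion and 2242.3, 2751 and 2536.7 in wild-type adventitia. ATLO array 2 stood low among the ATLO arrays and outside-lesion array 1 high among its own, so the groups overlapped. The log2 change was 0.53 ± 0.29 for ATLO against outside-lesion (limma, adjusted p = 0.179), -0.06 ± 0.31 for ATLO against wild type (adjusted p = 0.9) and -0.60 ± 0.31 for outside-lesion against wild type (adjusted p = 0.267). Loxl1 passed the test for ATLO against outside-lesion without ATLO array 2 (0.81, adjusted p = 0.024) and with the actin ratio as a covariate (1.03, adjusted p = 0.0391).

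**Figure D2:**
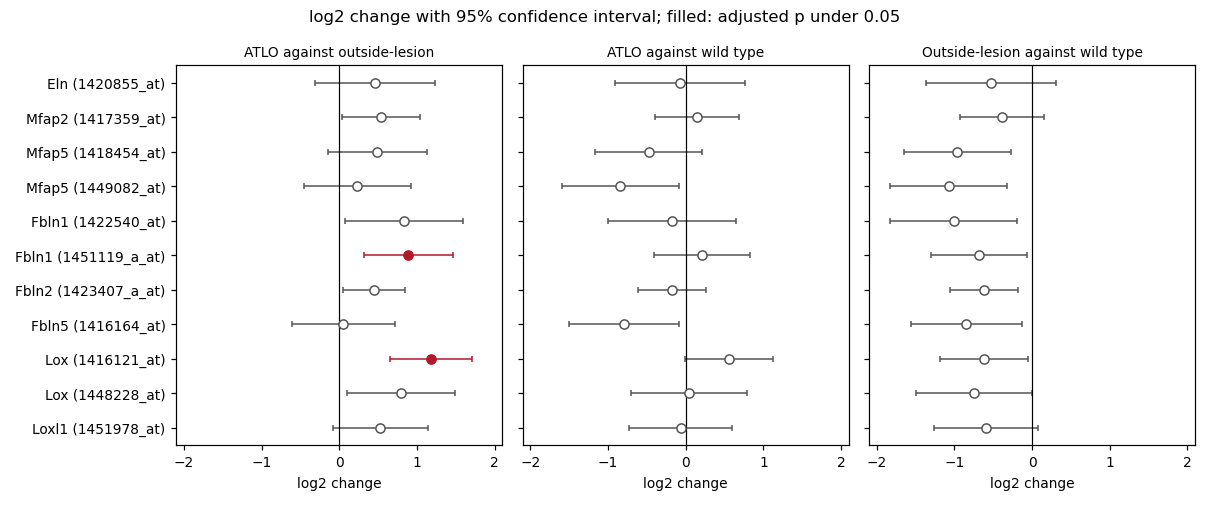
Log2 change (horizontal axes) with its 95% confidence interval for each tested probe set, in ATLO against outside-lesion, ATLO against wild-type and outside-lesion against wild-type adventitia; filled points have an adjusted p under 0.05. The 11 points lie at or above 0.05 in the first panel, between -0.84 and 0.56 in the second and at or below -0.39 in the third, and the 2 filled points are Fbln1 and Lox in the first.

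Outside-lesion adventitia had less signal than wild-type adventitia on all 11 probe sets, with log2 changes between -1.08 for Mfap5 and -0.39 for Mfap2, but none passed the test. Of all 14988 tested probe sets, 9130 had a negative change. By limma, 0 of 11 were called lower and 0 higher, where 1.54% of all tested probe sets were called lower and 1.72% higher. At an unadjusted p under 0.05 there were 8 of 11, against 3401 of all 14988 tested. The median log2 change was -0.68 over the 11 probe sets and -0.11 over all tested. Equal array medians moved the median of all by 0.17, and after quantile normalization the members' median lay at -0.57 relative to that of all. Equal medians raised the share of calls that were higher to 87.3%, and quantile normalization to 68.8%, from 52.8%. Fbln2, Fbln5 and Mfap5 (1449082_at) had outside-lesion arrays wholly below the wild-type arrays, 3 of 11 against 13.3% of all tested. With array weights, 5 of the 11 were called lower, namely both Mfap5 probe sets, Fbln1 (1422540_at), Fbln2 and Fbln5. Under the same setting 827 of all 14988 tested probe sets were called lower.

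Between ATLO and wild-type adventitia the genes split by sign and none passed the test. By limma, 0 of 11 were called higher and 0 lower, where 13.4% of all tested probe sets were called higher and 13.4% lower. At an unadjusted p under 0.05 there were 2 of 11, Mfap5 (1449082_at) and Fbln5, against 5886 of all 14988 tested. The log2 change was positive for 4 probe sets, both of Lox, Mfap2 and Fbln1 (1451119_a_at), and negative for 7. It was positive for 46.6% of all tested. The median was -0.07 over the 11 probe sets and -0.05 over all tested. Fbln5 alone had ATLO arrays wholly below the wild-type arrays, 1 of 11 against 20.8% of all tested. The first 2 comparisons described share the outside-lesion arrays, and those low arrays enter both the positive values of ATLO and the negative values against wild type.

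Within a group, the same arrays were high or low on most of the 11 probe sets. ATLO array 2 was the lowest of its group on 10 of the 11, with a median of -0.58 log2 units from the group means, and ATLO array 3 the highest on 9, with a median of 0.51. Outside-lesion array 3 was the lowest of its group on 8 and array 4 on the other 3, at -0.43 and -0.26, while arrays 1 and 2 were highest on 6 and 5, at 0.45 and 0.34. Wild-type array 1 was the lowest of its group on 10 of 11, at -0.30. The exception in ATLO was Lox (1448228_at), lowest on array 4, and that in wild type was Eln, lowest on array 3.

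**Figure D3:**
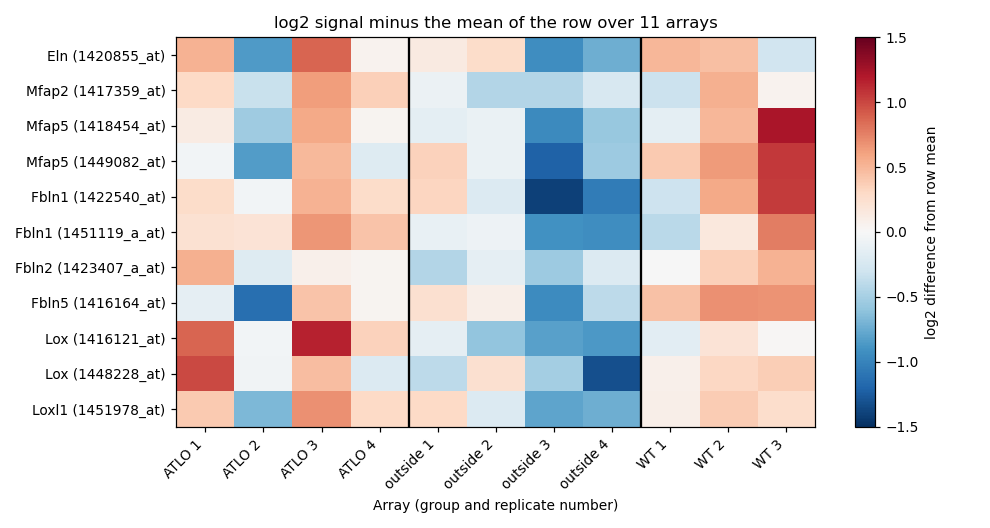
Log2 signal of each tested probe set (rows) on each array (columns) minus the row's mean over the 11 arrays, from blue (lower) to red (higher), with black lines between ATLO, outside-lesion and wild-type arrays. ATLO array 2 and outside-lesion arrays 3 and 4 are blue in most rows, and ATLO array 3 is red in nearly all.

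The arrays also differed in RNA quality. The ratio of the 3′ to the 5′ actin control, which rises where the amplified RNA is shorter, was 1.71 on ATLO array 2, the lowest of all arrays, and 8.14 on ATLO array 3, the highest of its group. On ATLO arrays 1 and 4 it was 4.99 and 3.58, where the members' median deviations from the group means were 0.11 and -0.0043. In ATLO the ratio and these median deviations thus kept one order over the 4 arrays. In the outside-lesion group the ratio was 10.2 and 6.22 on arrays 1 and 2, where the genes were higher. It was 12.0 and 6.47 on arrays 3 and 4, where they were lower, and in that group the 2 did not keep one order. Group means were 4.61 ± 2.71 in ATLO, 8.71 ± 2.83 in outside-lesion and 4.98 ± 0.683 in wild-type adventitia (SD, n = 4, 4 and 3). The exact two-sided permutation p was 0.114 for ATLO against outside-lesion and 0.0857 for outside-lesion against wild type, where the smallest possible is 0.0286, and 0.269 and 0.218 after Benjamini-Hochberg adjustment over 33 comparisons of such measures. With the ratio as a covariate, the members' median log2 change for ATLO against outside-lesion was 0.97, with all 11 positive. Its part in the results was not tested further.

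Fibroblasts and smooth muscle cells are the main sources of these genes in the vessel wall. In ATLO against outside-lesion adventitia, 17.9% of all tested probe sets were called higher and 13.9% lower. Of 15 tested fibroblast markers, 8 rose and 0 fell in ATLO against outside-lesion adventitia, with a median log2 change of 0.75, and 5 of the 15 had a negative change, the lowest being -0.73. Their summed signal was 70487 to 142315 in ATLO, 61253 to 138254 in outside-lesion and 78722 to 88051 in wild-type adventitia. The exact two-sided permutation p of the sum was 0.371 for ATLO against outside-lesion (0.533 adjusted over the 33 comparisons), with n = 4 each. The summed fibroblast, smooth muscle and macrophage signals were each lowest in ATLO on array 2 and lowest in the outside-lesion group on array 3. The elastic fibre genes were also low on these arrays. Other sums differed. In ATLO the T cell sum was highest on array 2 (7323), and the endothelial sum was lowest on array 3 (3902). The adipocyte sum was lowest on ATLO array 2 and on outside-lesion array 4. Pdgfra, the receptor that marks fibroblasts, rose in ATLO against outside-lesion by a log2 change of 1.22 ± 0.25 (limma, adjusted p = 0.00195). It had -0.05 ± 0.26 for ATLO against wild type (adjusted p = 0.902). In outside-lesion against wild type it fell by 1.28 ± 0.26 on the log2 scale (adjusted p = 0.0275). Of the 15 markers, 3 were called lower in that comparison and 0 higher, and 3 had a positive change. Over all tested probe sets, 1.54% were called lower and 1.72% higher. All calls there numbered 21 to 886 with an array left out, and the Pdgfra call was not followed in those fits. Col1a1, a chain of collagen I, rose in ATLO against both other groups. The log2 change was 1.23 ± 0.36 against outside-lesion (limma, adjusted p = 0.0196) and 1.80 ± 0.39 against wild type (adjusted p = 0.00495). Of the 15 fibroblast markers, 5 rose in ATLO against wild type and 2 fell, Cd34 and Tcf21. Over all tested probe sets, 13.4% were called higher and 13.4% lower in that comparison.

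Of 13 smooth muscle markers, 0 rose and 5 fell in ATLO against outside-lesion, and 0 rose and 10 fell in ATLO against wild type. Of all tested probe sets, 13.9% were called lower in the former comparison and 13.4% in the latter. By limma, 0 of the 13 were called in outside-lesion against wild type. At an unadjusted p under 0.05 there were 5 of 13, against 3401 of all 14988 tested. Their summed signal was 13354 to 32814 in ATLO, 22326 to 69837 in outside-lesion and 46186 to 49970 in wild-type adventitia. Myh11, the smooth muscle myosin heavy chain, fell in ATLO by 1.19 ± 0.41 on the log2 scale against outside-lesion (adjusted p = 0.0417) and by 1.94 ± 0.45 against wild type (adjusted p = 0.00682), whereas smooth muscle actin, Acta2, had -0.64 ± 0.37 (adjusted p = 0.202) and -0.65 ± 0.39 (adjusted p = 0.236).

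Markers of fat, immune and endothelial cells also passed the test. The counts that follow are for ATLO against outside-lesion, where 17.9% of all tested probe sets were called higher and 13.9% lower. Of 10 adipocyte markers, 9 fell in ATLO against outside-lesion, and their summed signal was 28655 to 81602 in ATLO, 142809 to 219556 in outside-lesion and 82999 to 109529 in wild-type adventitia. Adipoq, a fat cell hormone, fell by 1.43 ± 0.22 on the log2 scale in ATLO against outside-lesion (limma, adjusted p = 0.000288). Of 14 macrophage markers 13 rose, among them Mpeg1 by 2.73 ± 0.14 (adjusted p = 3.36e-07), and of 10 B and plasma cell markers all 10 rose, among them Cd79a by 3.11 ± 0.55 (adjusted p = 0.000776). Of 10 endothelial markers 6 fell, among them Kdr by 1.43 ± 0.16 on the log2 scale (adjusted p = 3.4e-05). Of 7 T cell markers 6 rose, of 4 Schwann cell markers 1 fell, and of 2 skeletal muscle markers 0 were called by limma, with 0 at an unadjusted p under 0.05. Mesothelial markers were dim on all arrays, with none tested and Msln at most 38.2. Since each array was scaled to the same level, a larger share of signal from one cell type lowers that of others, and the part of cell makeup in the values of the elastic fibre genes was not tested.

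Genes that work with the fibre were read from lists of its partners, of crosslinking enzymes with their helpers, and of elastin-degrading proteases with inhibitors. One probe set stood for each gene. Over all tested probe sets, 17.9% were called higher and 13.9% lower in ATLO against outside-lesion. The shares were 13.4% and 13.4% in ATLO against wild type, and 1.72% and 1.54% in outside-lesion against wild type. Of 22 tested partners, 12 rose and 0 fell in ATLO against outside-lesion, with a median log2 change of 0.80. The largest were Mfap4, a microfibril-associated glycoprotein, at 1.70 ± 0.56 (limma, adjusted p = 0.0329), Ltbp2, a fibrillin-like protein that binds microfibrils, at 1.504 ± 0.298 (adjusted p = 0.00181), and Emilin1, an elastin interface glycoprotein, at 1.49 ± 0.45 (adjusted p = 0.0211). Ltbp2 averaged 1191 ± 189 in ATLO, 457 ± 213 in outside-lesion and 438 ± 86.1 in wild-type adventitia (SD, n = 4, 4 and 3). It rose in ATLO against wild type too, by 1.45 ± 0.32 (adjusted p = 0.00564).

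Against wild type, 5 of the 22 partners rose in ATLO and 0 fell, where 13.4% of all tested probe sets were called higher and 13.4% lower. After Ltbp2 came Neu1 at 0.84 ± 0.18 (limma, adjusted p = 0.0043) and Ctsa at 0.82 ± 0.15 (adjusted p = 0.00224), a lysosomal sialidase and its protective protein that also form the cell surface elastin receptor complex. In outside-lesion against wild type 1 partner fell, the proteoglycan Vcan, by 1.06 ± 0.24 on the log2 scale (adjusted p = 0.0379). It was 1 of 5 related genes called in that comparison, and 0 of the 59 tested were called under the replicate block or without outside-lesion array 3 or 4 or any 1 wild-type array. Vcan also rose in ATLO against outside-lesion adventitia by 1.41 ± 0.22 (adjusted p = 0.000356), so its outside-lesion level of 196 ± 51.6 was below those of ATLO at 518 ± 122 and wild type at 403 ± 77.7 (SD, n = 4, 4 and 3).

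Of 19 crosslinking enzymes and helpers, 7 rose and 0 fell in ATLO against outside-lesion, with a median log2 change of 0.61. Plod2, which hydroxylates lysines of collagen ends ahead of their crosslinking, rose by 1.84 ± 0.17 (limma, adjusted p = 1.59e-05) against outside-lesion and by 1.59 ± 0.18 (adjusted p = 0.000116) against wild type. Fmod, a small proteoglycan that binds collagen and lysyl oxidase, rose by 1.11 ± 0.33 (adjusted p = 0.0197), and Atp7a, the copper pump that supplies lysyl oxidases, by 1.04 ± 0.31 (adjusted p = 0.0216), both against outside-lesion. Against wild type, 2 of the 19 rose in ATLO and 1 fell, where 13.4% of all tested probe sets were called higher and 13.4% lower. The rises were Plod2 and the copper chaperone Atox1 (0.51 ± 0.14, adjusted p = 0.0163), and the fall was Pcolce2, an enhancer of procollagen processing, by 1.92 ± 0.30 on the log2 scale (adjusted p = 0.000697). In outside-lesion against wild type, Atox1 rose by 0.61 ± 0.14 (adjusted p = 0.0366) and Pcolce2 fell by 1.24 ± 0.30 on the log2 scale (adjusted p = 0.0418), both calls lost under the alternatives named above.

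Of 18 tested elastin-degrading proteases and inhibitors, 10 rose and 1 fell in ATLO against outside-lesion, with a median log2 change of 1.15. Mmp12, macrophage elastase, had 2346.2, 1959.2, 351.4 and 774.2 in ATLO, 67.4, 23.3, 3.8 and 65.5 in outside-lesion and 4.7, 4.1 and 19 in wild-type adventitia. All ATLO arrays were above all others, and all wild-type arrays lay under the floor. Its log2 change was 4.45 ± 0.50 against outside-lesion (limma, adjusted p = 3.59e-05), where 2 of the 4 outside-lesion arrays were at the floor, and against wild type it was at least 30.1-fold higher (adjusted p = 8.96e-05).

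Slpi, a secreted inhibitor of leukocyte elastase, rose in ATLO by 4.41 ± 1.09 against outside-lesion (limma, adjusted p = 0.00738) and by 3.62 ± 1.18 against wild type (adjusted p = 0.0363). It had 15527.8, 12872, 17172.3 and 2617.7 in ATLO, 379.9, 246.2, 304.4 and 1539.5 in outside-lesion and 185.4, 11358.5 and 233.7 in wild-type adventitia, so wild-type array 2 lay among the ATLO arrays. Mmp3, stromelysin, rose by 3.12 ± 0.49 against outside-lesion (adjusted p = 0.000327), and the inhibitor Timp1 rose by 2.53 ± 0.40 against wild type (adjusted p = 0.000725).

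The one gene of this list that fell in ATLO against outside-lesion was Timp4, by 1.44 ± 0.24 on the log2 scale (limma, adjusted p = 0.000438). Against wild type, 10 of the 18 rose and 4 fell, and 3 of the 4 falls were inhibitors of metalloproteinases, Timp3 by 1.47 ± 0.25 (adjusted p = 0.00123), Timp4 by 1.11 ± 0.25 (adjusted p = 0.00653) and Reck by 0.85 ± 0.25 on the log2 scale (adjusted p = 0.0247). The fourth was the gelatinase Mmp9, by 0.98 ± 0.31 on the log2 scale (adjusted p = 0.0336). Inhibitors on the list also rose against wild type, namely Timp1, Slpi and A2m, the last by 1.65 ± 0.41 (limma, adjusted p = 0.0107). In outside-lesion against wild type 2 fell, Reck by 1.12 ± 0.25 (adjusted p = 0.037) and the lysosomal protease Ctsl by 0.96 ± 0.20 on the log2 scale (adjusted p = 0.0269), and both calls were lost under the replicate block and without those same arrays. One list member, Ctss, also served as a macrophage marker.

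**Figure D4:**
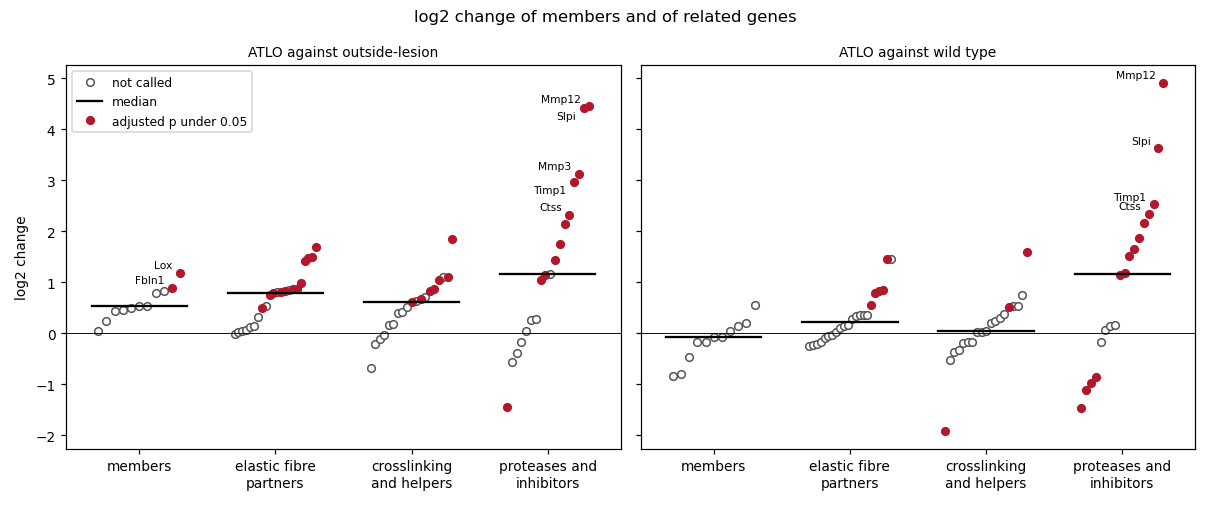
Log2 change (vertical axes) of the 11 member probe sets and of the tested genes of the 3 related lists, sorted within each list, in ATLO against outside-lesion (left) and ATLO against wild-type adventitia (right); filled points have an adjusted p under 0.05 and bars are medians. The members' median is 0.53 on the left and -0.07 on the right, and that of the proteases and inhibitors is 1.15 and 1.16.

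The genes whose pattern over the 11 arrays was most like that of Eln were ranked by the root mean square difference of their log2 signals after each was centred on its mean, over 9054 genes. The closest was Loxl1, at 0.285 log2 units. It was followed by Vasn, a membrane glycoprotein of vascular smooth muscle, at 0.292, the matrix glycoprotein Tnc at 0.312, the lymphatic growth factor Vegfd at 0.316 and the focal adhesion protein Zyx at 0.320. Among these only Tnc was called in ATLO against outside-lesion, with a log2 change of 0.91 ± 0.31 (limma, adjusted p = 0.0398). Of the other members, Fbln5 ranked at 86, Mfap2 at 213, Lox at 252, Fbln2 at 577, Mfap5 at 981 and Fbln1 at 1454. The measure describes 11 arrays scaled to one level, and genes with a small spread over arrays can rank high by it.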

How the data were processed

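Adventitia of the abdominal aorta was measured on 11 Affymetrix arrays. The authors deposited linear signal intensities per probe set, made with GCOS 1.4 per the submitters' processing notes, and scaled to a trimmed mean of about 500.2 on every array; array medians were 151.5 to 191. The sources used here do not give the summary method. After removal of 64 controls, signals were floored at 35.1 (their 20th percentile) and put on the log2 scale. Probe sets above their array's 40th percentile on at least 3 arrays were tested with limma 3.58.1 in R 4.3.3, with a mean per group over all 11 arrays, an intensity trend and Benjamini-Hochberg adjustment. The number of arrays limits the precision. Of 22626 probe sets, 20380 had 1 gene symbol in the platform annotation, 691 several and 1555 none. One probe set stood for each related gene. Named were all members, up to 3 called genes each way per related list and comparison, and the marker genes Apoe, Acta2, Myh11, Pdgfra, Col1a1, Mpeg1, Cd79a, Adipoq, Kdr and Msln. A2m, Cd34 and Tcf21 were named besides, as further called genes of their lists. Members and lists were chosen with earlier results of these data known. Alternatives covered scaling, floor, filter, arrays in the fit, a replicate block, array weights, the intensity trend, the actin ratio, gene averages and leaving out each array. No 2 arrays were identical (highest correlation 0.977).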

Additional observations from a re-analysis of the deposited data

Results flagged for a closer look

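Of 84 groups of 4 arrays examined, 5 held an array far from the other 3 by Dixon's gap test at its 95% level, and chance alone marks about 1 in 20; no member probe set was among them. Neu1 had 261.2 on outside-lesion array 3, against 236.7 to 236.9 on the other 3. Timp1 had 727.8 on outside-lesion array 1, against 243.4 to 325.9. Slpi had 1539.5 on outside-lesion array 4, against 246.2 to 379.9. Reck had 712.4 on ATLO array 3, against 458.5 to 495.4, and that array was also the highest of its group on 9 of the 11 member probe sets. Col1a1 had 3580.4 on outside-lesion array 1, against 836.8 to 1262.8, and that array also had the highest summed fibroblast marker signal of its group.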

How the results depend on the processing

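For ATLO against outside-lesion, 1 member probe set was called higher with equal array medians and 1 with no filter, 6 with array weights and 1 to 4 with an array left out: 1 without ATLO array 3 or outside-lesion array 3 or 4, and 4 without ATLO array 2. All calls numbered 2552 with the actin ratio as a covariate. Of all tested probe sets, 2688 were called higher in the report, 2968 with array weights and 2187 without ATLO array 2. Such calls numbered 1985 with equal array medians and 2449 with no filter, where 22626 probe sets were tested. They numbered 2419 without ATLO array 3, 2306 without outside-lesion array 3 and 2240 without outside-lesion array 4. For ATLO against wild type, 1 member probe set was called higher with the actin ratio as a covariate. With an array left out, 0 to 1 were called higher (1 without ATLO array 2) and 0 to 2 lower (2 without ATLO array 3). Of all tested probe sets, 1927 were called higher with that covariate, 1717 higher without ATLO array 2 and 1771 lower without ATLO array 3. For outside-lesion against wild type, all calls numbered 301 with no filter, 202 with only these groups in the fit, 1530 with array weights, 248 without the trend, 86 with the actin ratio and 21 (without wild-type array 2) to 886 (without outside-lesion array 2) with an array left out; the related genes called, 5 in the report, were 2 with equal medians, 1 with no filter, 1 with only these groups, 14 with weights, 1 without the trend, 1 with the actin ratio and 0 to 8 with an array left out, and member probe sets called lower were 5 with weights. With weights, 827 of all tested probe sets were called lower in this comparison. The replicate block left 189 calls and 0 related genes called in outside-lesion against wild type. It raised the second Lox probe set to a call in ATLO against outside-lesion (limma, adjusted p = 0.0469). Deviations from group means had correlations of -0.178 to 0.273 over 10 same-numbered pairs, against -0.198 to 0.238 over 30 pairs of different number. For ATLO with outside-lesion arrays of the same number they were 0.142, 0.0749, 0.0397 and 0.153. For those of different number they were -0.198 to 0.152. These values cannot show whether same-numbered arrays share a mouse. Signs turned only for probe sets with log2 changes between -0.18 and 0.23. For ATLO against outside-lesion, Fbln5 was -0.067 with equal medians, -0.016 with quantile normalization and -0.18 to 0.36 with an array left out, and Mfap5 (1449082_at) -0.043 to 0.47. For ATLO against wild type, Eln was 0.013 under the replicate block, 0.087 with the actin ratio, 0.31 with its probe sets averaged and -0.32 to 0.26 with an array left out. Loxl1 was 0.031 with weights, 0.084 with the actin ratio and -0.23 to 0.22, Lox (1448228_at) -0.047 with weights and -0.18 to 0.21, Mfap2 -0.056 to 0.37, and Fbln1 -0.55 to 0.13 (1422540_at) and -0.080 to 0.51 (1451119_a_at). Where a call was gained or lost by leaving out an array, fewer samples entered the fit; otherwise the cause was not tested. With its probe sets averaged, Fbln1 in ATLO against outside-lesion had 0.86 (adjusted p = 0.0503). Signals under the floor have no order, which limits the dim Eln and Lox probe sets.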
